A study of Homo sapiens with 3 samples.

Results

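HAND1-positive mesoderm-like cells were drawn from the BMP4 library of a single-cell RNA study of micropatterned human embryonic stem cell colonies. A cell belonged to them if it held at least 3 UMIs of HAND1 (ENSG00000113196), at least 1 UMI of MESP1 (ENSG00000166823) and at most 1 UMI of TFAP2A (ENSG00000137203), a UMI being 1 counted RNA molecule. The rule was met by 1421 of the 9401 kept BMP4 cells, a share of 15.1% (exact binomial 95% interval 14.4 to 15.9), out of 23361 kept cells in all 3 libraries. The cells were chosen by the measured counts of these 3 genes, whose levels are therefore given as a description.

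All 3 libraries were made from 1 established line, HES3 Mixl1:GFP, whose human embryonic stem cells carry a fluorescent reporter for MIXL1. Cells were seeded on micropatterns with 10 µM of the ROCK inhibitor Y-27632, and treatment started after 24 h and lasted 48 h. The BMP4 colonies received 50 ng/mL of BMP4. In the CHIR colonies the treatment was 6 µM CHIR99021, which blocks GSK3 and so switches on canonical WNT targets. In the CHIR+Activin colonies CHIR99021 was used at 3 µM, together with Activin A at 100 ng/mL, which signals through the receptors that NODAL uses. Each treatment was 1 library of about 10 pooled micropatterns, aimed at 10000 cells, so no value below has a replicate and no test was made. Levels are in CPM, the UMIs of a gene summed over the cells of a population and scaled to 1000000 UMIs. Values in parentheses after a level are its exact 95% interval, which reflects counting alone and not variation between colonies.

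HAND1 is a basic helix-loop-helix transcription factor of lateral plate, cardiac and extraembryonic mesoderm, and it is also made by amnion. MESP1 is a factor of the same class that marks mesoderm as it leaves the primitive streak, and TFAP2A marks amnion and surface ectoderm. BMP signals set how posterior and lateral the mesoderm becomes, and cells that leave the streak pass through an epithelial-to-mesenchymal transition (EMT), in which SNAI and ZEB factors act on cadherins and junctions.

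The HAND1-positive cells held a median of 5 HAND1 UMIs (lowest 3, highest 30) and 9 MESP1 UMIs (lowest 1, highest 53). Their median depth was 13577 UMIs and 4746 genes, with 3.96% of UMIs from mitochondrially encoded genes. They were set against 1033 BMP4 cells with no HAND1 UMI and at least 4 MESP1 UMIs, called MESP1-high HAND1-negative cells (median depth 12823 UMIs), and against all 7980 other kept BMP4 cells (12485.5 UMIs). A further comparison used 558 amnion-like cells (18808.5 UMIs), which held at least 2 TFAP2A and at least 1 GATA3 UMIs and were not HAND1-positive mesoderm-like. HAND1 stood at 403 CPM in the HAND1-positive cells, 431 CPM in the amnion-like cells and 73.9 CPM in all other kept cells. MESP1 stood at 634, 90.8 and 167 CPM in the same order, and at 449 CPM in the MESP1-high HAND1-negative cells. HAND1 was thus as abundant in amnion-like cells as in the cells chosen for it, whereas MESP1 was not.

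Cells near the thresholds were numerous. Among cells with MESP1 and at most 1 TFAP2A UMI, 323 held 3 HAND1 UMIs and 270 held 4, just inside the rule, while 497 held 2 and 833 held 1. Of the 1907 BMP4 cells with at least 3 HAND1 UMIs, 390 were left out for 2 or more TFAP2A UMIs and 96 for having no MESP1 UMI. TFAP2A was at 0 in 1269 of the HAND1-positive cells and at 1 UMI in 152, and 52 cells with 2 UMIs lay just outside.

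**Figure D1:**
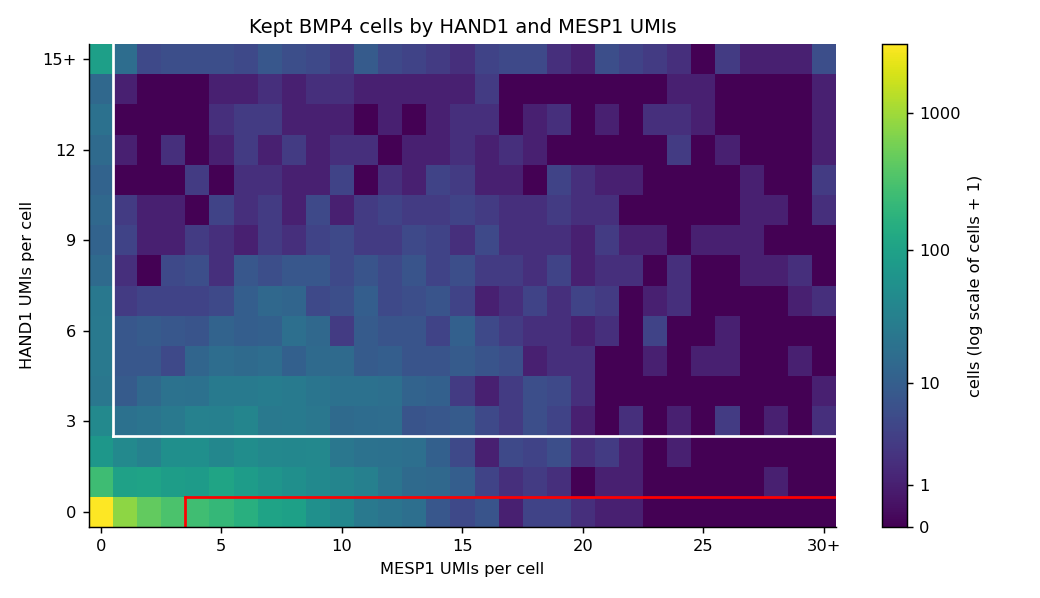
Kept BMP4 cells by MESP1 UMIs per cell (horizontal) and HAND1 UMIs per cell (vertical), with colour for the number of cells on a log scale of cells + 1. Cells inside the white lines with at most 1 TFAP2A UMI are the 1421 HAND1-positive mesoderm-like cells, and the red box holds the 1033 MESP1-high HAND1-negative cells. Cells also fill the field between the boxes, and at counts this low that cannot show whether the populations are continuous or separate.

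The same UMI rule found 0 of 7084 CHIR cells, a share whose exact binomial 95% interval reached up to 0.0521%. It found 21 of 6876 CHIR+Activin cells, a share of 0.305% (0.189 to 0.466). The libraries held 17653 HAND1 UMIs under BMP4, 24 under CHIR and 156 under CHIR+Activin. Median depth per kept cell was 12623 UMIs under BMP4, 22919.5 under CHIR and 17202 under CHIR+Activin, and 17822 in the 21 cells. The rule was not adjusted for depth, and a minimum of UMIs per barcode was set for the BMP4 library only. BMPER and WNT5A stood at 183 and 194 CPM in the HAND1-positive BMP4 cells, against 125 (93.5 to 163) and 191 (151 to 237) CPM in the 21 CHIR+Activin cells. CDH11, TBX3 and BMP4 were higher in the BMP4 cells, at 89.2, 160 and 101 CPM, against 18.8 (8.13 to 37.1), 16.5 (6.63 to 34.0) and 14.1 (5.18 to 30.7) CPM in the CHIR+Activin cells. NCAM1, LGR5 and ZEB2 were lower in the BMP4 cells, at 75.5, 89.2 and 57.4 CPM, against 127 (95.5 to 166), 129 (97.6 to 169) and 98.9 (71.3 to 134) CPM. ST8SIA1 stood at 53.6 CPM, against 65.9 (43.8 to 95.3) CPM, so its interval held the level in the BMP4 cells. ALPK2 stood at 57.37 CPM, against 82.4 (57.40 to 115) CPM, so its interval began just above the level in the BMP4 cells. CER1, which encodes a secreted NODAL and BMP antagonist, stood at 429 CPM in the HAND1-positive BMP4 cells and at 1457 CPM in those 21 cells. With 1 library per treatment, the treatment and the library cannot be told apart.

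BMPER (ENSG00000164619), WNT5A (ENSG00000114251) and TBX3 (ENSG00000135111) had been named with HAND1 and MESP1 as marks of these cells, and all 3 were more abundant in them than in the MESP1-high HAND1-negative cells. BMPER, an extracellular regulator that binds BMPs, stood at 183 (177 to 189) CPM in the HAND1-positive cells and 54.6 (50.9 to 58.4) CPM in the MESP1-high HAND1-negative cells. The non-canonical ligand WNT5A stood at 194 (188 to 200) and 91.1 (86.4 to 96.1) CPM, and the T-box repressor TBX3 at 160 (155 to 165) and 78.3 (73.9 to 82.9) CPM, in the same order. TBX3 did not mark the cells off from amnion-like cells, where it stood at 135 CPM, while BMPER (30.8 CPM) and WNT5A (29.9 CPM) were low there. Since the names of the markers came from earlier work on these data, their ratios are a description of the label.

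Droplets too poor in RNA to be cells also held these transcripts: 73901 BMP4 droplets of 10 to 100 UMIs had HAND1 at 93.2 CPM and MESP1 at 147 CPM. Epiblast-like cells, here 378 BMP4 cells with at least 2 SOX2 UMIs and no TBXT or MESP1 UMI (median depth 14551.5 UMIs), served as cells that should lack these genes, and HAND1 stood at 9.05 CPM in them. After each cell was thinned to 10000 UMIs, BMPER was seen in 71.3% of 1155 HAND1-positive cells (81.2% before thinning, 266 shallower cells left out) and in 2.49% of 321 epiblast-like cells (5.03% before thinning, 57 left out). WNT5A was seen in 78.1% and 2.49%, TBX3 in 72.7% and 2.49%, and CDH11 in 39.5% and 2.80% of the same thinned cells. MESP1-high HAND1-negative cells lay between, with BMPER in 32.8% of 814 thinned cells (38.7% before thinning, 219 left out). The shares in HAND1-positive cells were thus well above those in epiblast-like cells of the same library. As the epiblast-like cells were chosen to hold no TBXT or MESP1 UMI, their shares may understate free RNA.

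Upstream sequences of HAND1 and BMPER are shown because HAND1 chose the cells and BMPER was the named marker that differed most between them and the MESP1-high HAND1-negative cells. Each run is the 250 bases before the RefSeq start in GRCh38.p14, 5′ to 3′ on the strand of the gene, with capitals for the letters GGCGCC, a GC-rich motif that SMAD proteins are known to bind. The HAND1 window lies at chr5:154478228-154478477 on the minus strand and the BMPER window at chr7:33904665-33904914 on the plus strand.
HAND1: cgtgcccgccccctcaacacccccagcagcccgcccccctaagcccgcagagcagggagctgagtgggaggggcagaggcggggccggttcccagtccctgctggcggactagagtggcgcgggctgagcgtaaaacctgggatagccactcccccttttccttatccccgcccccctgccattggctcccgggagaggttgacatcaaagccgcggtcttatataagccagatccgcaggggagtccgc
BMPER: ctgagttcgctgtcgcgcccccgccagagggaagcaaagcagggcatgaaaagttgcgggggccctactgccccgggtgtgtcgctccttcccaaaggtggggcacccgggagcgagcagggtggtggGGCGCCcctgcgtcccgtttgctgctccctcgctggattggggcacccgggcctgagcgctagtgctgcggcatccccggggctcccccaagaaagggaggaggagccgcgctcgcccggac
GGCGCC began 122 bases before the BMPER start and was not among these letters of HAND1. Counted on both strands, the motif was in 21.8% of the 55 upstream windows found for genes at least 2-fold higher in the HAND1-positive cells than in the MESP1-high HAND1-negative cells. It was in 27% of the 7802 windows of all genes compared and in 16.1% of all 27305 windows. The GATA motif AGATAA was in 5.45%, 4.18% and 9.37% and the E-box CATCTG in 10.9%, 7.36% and 12.2% of the same windows, where AGATAA and CATCTG cannot overlap on either strand and GGCGCC can share at most 1 end base with CATCTG. Among the 55 windows of higher genes, GGCGCC was in 12, AGATAA in 3 and CATCTG in 6. Among the 22 windows found for genes at least 2-fold lower, GGCGCC was in 4 (18.2%), AGATAA in 4 (18.2%) and CATCTG in 3 (13.6%). These are small counts, and a match in letters is not a bound site.

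Against the MESP1-high HAND1-negative cells, the closest population that MESP1 defines, the HAND1-positive cells carried more RNA of the adhesion genes CDH11 and NCAM1, the EMT factors SNAI2, ZEB1 and ZEB2, the ligands BMP4 and BMP2 and the cardiac factor TBX20. They carried less RNA of DKK1, FGF4 and NODAL. Of 9704 genes with at least 10 CPM in either population, 78 were at least 2-fold higher, HAND1 among them, which is 0.804%, and 40 were at least 2-fold lower, which is 0.412%. The median log2 ratio over all 9704 genes was -0.01. The number of lower genes was 25 with at least 2 HAND1 UMIs as the rule, 65 without the cells of highest doublet score and 66 after thinning. A gene that reached 10 CPM only where it was high had to differ, so the counts per list below describe which genes were involved and nothing more.

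CDH11 (ENSG00000140937), a cadherin of mesenchymal cells, differed most among genes of at least 50 CPM other than HAND1. It stood at 89.2 (85.4 to 93.1) CPM in the HAND1-positive cells and 14.5 (12.6 to 16.5) CPM in the MESP1-high HAND1-negative cells, a log2 ratio of 2.63 (2.42 to 2.83). The adhesion molecule NCAM1 followed at 75.5 and 16.4 CPM, a log2 ratio of 2.21 (2.01 to 2.40). Both genes encode proteins that join cells of the same kind.

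The 12 genes with the highest ratios also held LGR5, a receptor for R-spondins that amplifies WNT signals, at 89.2 and 21.1 CPM (log2 ratio 2.08). SHISA6 and the ganglioside synthase gene ST8SIA1 had log2 ratios of 2.01 and 1.99. ALPK2 (1.74), CGNL1 (1.52), PDE10A (1.51) and COLEC12, a scavenger receptor gene at 84.4 and 29.8 CPM, were lower in that order. ZEB2, BMPER and BMP4 made up the rest of the 12.

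Of 13 measured EMT factors and cadherins, 5 were at least 2-fold higher and none lower, with a median log2 ratio of 0.25. Besides CDH11, they were the transcriptional repressors SNAI2 (20.6 CPM in HAND1-positive cells and 4.88 CPM in MESP1-high HAND1-negative cells), ZEB1 (13.8 and 3.63 CPM) and ZEB2 (57.4 and 15.8 CPM), and the intermediate filament gene VIM (221 and 107 CPM). The genes of the switch from CDH1 to CDH2 were not among them. CDH1 stood at 95.5 and 109 CPM, a log2 ratio of -0.19 (-0.28 to -0.10), and CDH2 at 291 and 380 CPM, a log2 ratio of -0.38 (-0.43 to -0.33). Epithelial junction genes had 0 of 13 past 2-fold, near the share over all genes, with a median of -0.20. The HAND1-positive cells therefore held more RNA of SNAI2, ZEB1 and ZEB2 beside levels of CDH1 and CDH2 that were each slightly lower.

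Among lateral plate, cardiac and extraembryonic mesoderm genes, 4 of 8 measured were at least 2-fold higher and none lower (median log2 ratio 0.98). TBX20, a T-box factor of the heart field, stood at 13.1 (11.7 to 14.7) CPM in the HAND1-positive cells and 3.43 (2.56 to 4.50) CPM in the MESP1-high HAND1-negative cells. The other 3 were BMP4, VIM and TBX3. Under some alternatives TBX3, VIM, WNT5A and BMP2 lay just under 2-fold, with log2 ratios down to 0.93, 0.93, 0.91 and 0.93. GATA4 (91.1 and 47.8 CPM) and GATA6 (506 and 366 CPM), zinc-finger factors of cardiac mesoderm and endoderm, were also higher, with log2 ratios of 0.93 and 0.46.

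Most of that list lay below the level needed for a comparison, since 21 of its 29 genes other than HAND1 did not reach 10 CPM in either population. FOXF1, a factor of splanchnic mesoderm, stood at 7.19 and 2.31 CPM, and the cardiac factor NKX2-5 at 6.22 and 1.52 CPM. HAND2 (0.131 and 0.198 CPM) and the sarcomere gene TNNT2 (0.526 and 0.462 CPM) were near the level of 3 counts, which is 0.131 CPM in HAND1-positive cells and 0.198 CPM in MESP1-high HAND1-negative cells. TBX5 and LUM were at 0 in both populations. Other muscle and matrix genes were present at similar levels in these populations, with the cardiac actin gene ACTC1 at 26.2 and 21.3 CPM, the tropomyosin gene TPM1 at 165 and 152 CPM and the collagen gene COL1A2 at 97.4 and 100 CPM.

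Nascent and paraxial mesoderm genes had 3 of 11 measured at least 2-fold higher (CDH11, SNAI2 and the apelin receptor gene APLNR) and none lower, with a median of 0.68. APLNR stood at 104 and 45.1 CPM, and MESP2, a paralogue of MESP1, at 87.5 and 46.7 CPM. TBX6 (26.7 and 18.9 CPM) and PDGFRA (71.0 and 53.3 CPM) differed less, with log2 ratios of 0.50 and 0.41. The paraxial factor MSGN1 stood at 16 and 17.6 CPM, a log2 ratio of -0.14 (-0.38 to 0.09).

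BMP ligands and their extracellular regulators had 3 of 8 measured at least 2-fold higher, and none lower (median 0.26). BMP4 (ENSG00000125378), the ligand also given as treatment, stood at 101 (96.7 to 105) CPM in the HAND1-positive cells and 31.7 (28.9 to 34.6) CPM in the MESP1-high HAND1-negative cells. BMP2 stood at 96.0 and 46.8 CPM in them. BMPER completed the 3. BMP response genes differed less, with 1 of 10 (TBX3) at least 2-fold higher and a median of 0.30. ID1 was slightly lower, at 662 and 720 CPM (log2 ratio -0.12), while ID3 (721 and 597 CPM), the inhibitory SMAD gene SMAD6 (67.4 and 38.0 CPM) and MSX1 (15.3 and 8.65 CPM) were higher.

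The WNT genes moved in both directions. Of 16 measured receptors and secreted modulators, LGR5 and ROR1, a receptor for WNT5A (98.7 and 49.3 CPM), were at least 2-fold higher and DKK1 was at least 2-fold lower. DKK1, a secreted inhibitor of canonical WNT signals, stood at 47.2 (44.4 to 50.1) CPM in the HAND1-positive cells and 121 (115 to 127) CPM in the MESP1-high HAND1-negative cells, a log2 ratio of -1.36. The median over the 16 genes was -0.14, so the list as a whole was not higher.

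The fibroblast growth factor gene FGF4 was lower in the HAND1-positive cells. It stood at 29.4 and 64.0 CPM (log2 ratio -1.12) and was the only 1 of 12 measured streak genes past 2-fold, with a list median of -0.40. NODAL stood at 51.8 and 98.2 CPM (log2 ratio -0.92), and its relative GDF3 at 9.55 and 17.5 CPM. The ligand gene WNT3 stood at 94.2 and 117 CPM, and the NODAL antagonist genes LEFTY1 and LEFTY2 were slightly higher, with log2 ratios of 0.24 and 0.15. The streak transcription factors also differed by less than 2-fold, with TBXT at 239 and 339 CPM, MIXL1 at 349 and 456 CPM and EOMES at 189 and 243 CPM. KITLG, the ligand of the KIT receptor, was also at least 2-fold lower, at 17.4 and 40.2 CPM. The lower levels of DKK1 and FGF4 depended on the comparison. Over all other kept cells, DKK1, FGF4 and NODAL had log2 ratios of -0.20, -0.53 and -0.86, and over amnion-like cells 1.45, 0.89 and -0.12.

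The noncoding RNA NIHCOLE had the lowest ratio, at 13.5 CPM in the HAND1-positive cells and 51.5 CPM in the MESP1-high HAND1-negative cells (log2 ratio -1.94). The gene listed only as ENSG00000285835 lay at -1.39, GABRB2, KIAA0825, NKAIN2, RGS7 and GLIPR1L1 between -1.34 and -1.06, and MAPK10 and the caveolin gene CAV1 at -0.95 and -0.92. KIAA0825 stood at 61.5 CPM in the HAND1-positive cells and at 563 CPM in epiblast-like cells, the highest of the populations compared.

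Epiblast and pluripotency genes had 0 of 13 past 2-fold (median -0.28), with NANOG at 10.4 and 17.4 CPM. Amnion or trophoblast genes had 0 of 6 past 2-fold (median -0.05) and caudal genes 0 of 7 (median -0.38). No gene of the S phase list (19 measured, median -0.03), the G2 and mitosis list (20, median -0.07), glycolysis (15, median 0.00) or cholesterol synthesis (15, median 0.04) was past 2-fold. Stress and dissociation genes had 0 of 10 and p53 target genes 0 of 5 past 2-fold. Of all 9704 genes, 0.804% were at least 2-fold higher and 0.412% lower, so 0 in lists of this size is near the share over all genes.

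**Figure D2:**
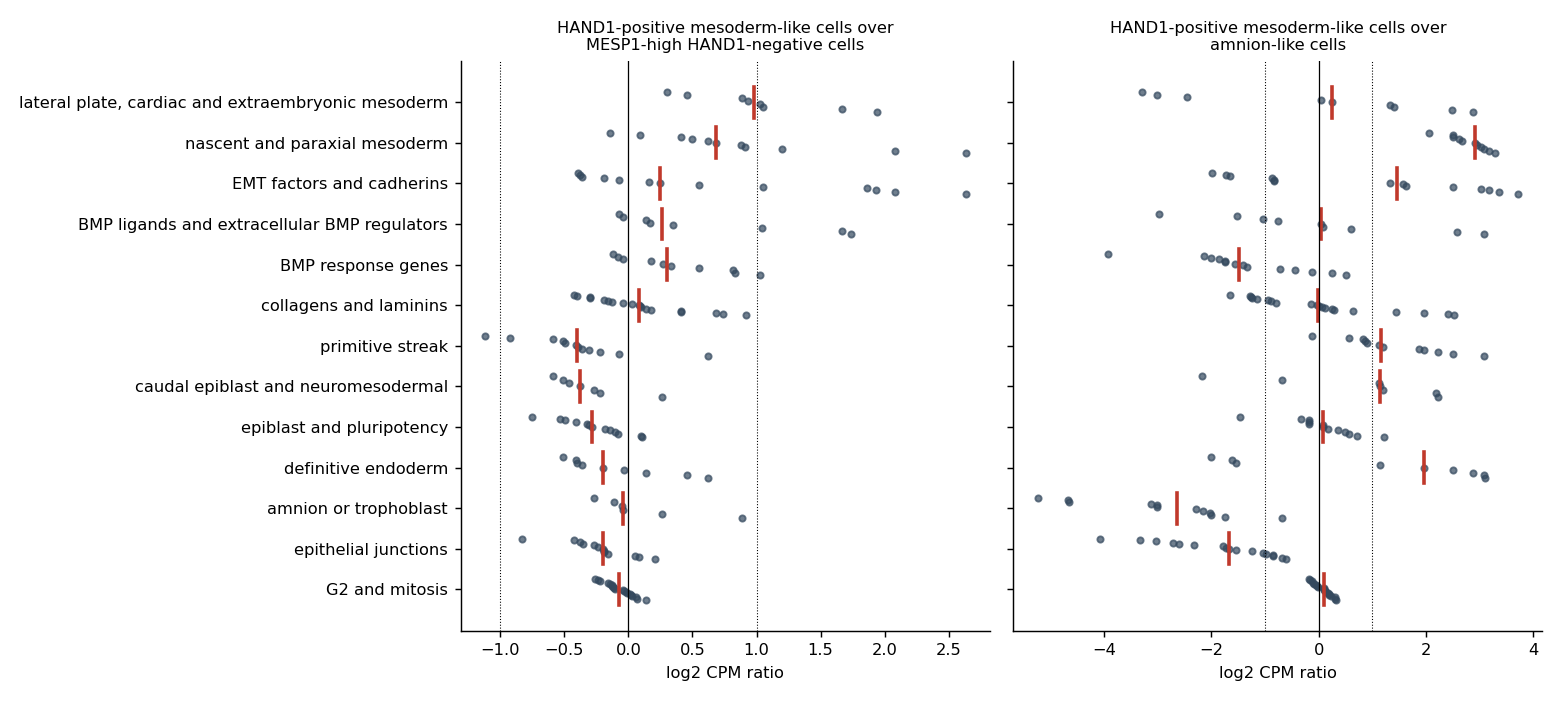
log2 CPM ratio of each measured gene (points) by gene list, for HAND1-positive mesoderm-like cells over MESP1-high HAND1-negative cells (left) and over amnion-like cells (right), with red bars for the median and dotted lines at 2-fold. Lateral and nascent mesoderm genes lie to the right on the left panel, with medians of 0.98 and 0.68, and amnion genes lie far to the left on the right panel, with a median of -2.64. Some of these amnion genes, such as TP63 and KRT7, reached 10 CPM only in amnion-like cells, which were chosen by TFAP2A and GATA3.

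HOX genes, which set position along the body axis, were scarce but uneven. None of the 24 listed reached 10 CPM in the HAND1-positive or MESP1-high HAND1-negative cells. Their summed level was 30.4 CPM in the HAND1-positive cells, 7 CPM in the MESP1-high HAND1-negative cells and 34.3 CPM in the amnion-like cells. HOXB6 stood at 8.55 (7.39 to 9.83) CPM in the HAND1-positive cells, from 195 UMIs, and at 0.264 (0.0719 to 0.676) CPM in the MESP1-high HAND1-negative cells, from 4 UMIs, a log2 ratio of 5.02 (3.64 to 6.91). HOXB2 stood at 6.92 and 0.792 CPM, and HOXB9 at 4.03 and 0.660 CPM. Genes of the HOXB cluster overlap antisense transcripts, and the sources used here do not state whether counting used strand.

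**Figure D3:**
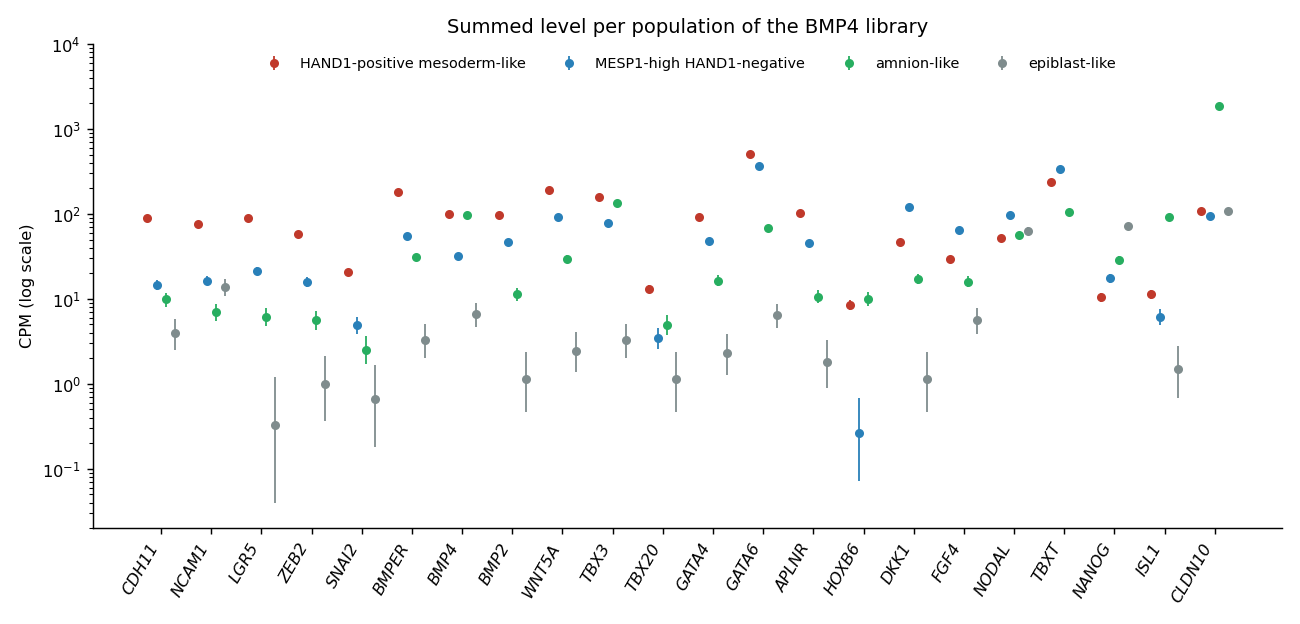
Summed CPM (log scale) of 22 genes in 4 populations of the BMP4 library, with exact 95% Poisson intervals. HAND1-positive mesoderm-like cells lie above MESP1-high HAND1-negative cells from CDH11 (89.2 and 14.5 CPM) to HOXB6 (8.55 and 0.264 CPM) and below them for DKK1, FGF4 and NODAL; in epiblast-like cells HOXB6 is at 0 and TBXT is at 0 by the rule for those cells, so neither is drawn.

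Amnion-like cells were the other BMP4 population rich in HAND1. Against them, the HAND1-positive cells held much more RNA of nascent and paraxial mesoderm genes and much less of keratins, junction genes and amnion factors. Of 10037 genes measured, 347 were at least 2-fold higher, which is 3.46%, and 680 were at least 2-fold lower, which is 6.77%. The median log2 ratio was 0.05. Genes that chose the cells were not left out of these counts, with MESP1 among the higher and TFAP2A among the lower. Genes that reached 10 CPM only in the HAND1-positive cells had to be higher, and genes that did so only in the amnion-like cells had to be lower. The median depth was also lower in the HAND1-positive cells, at 13577 UMIs against 18808.5 UMIs in the amnion-like cells, and with all cells thinned to 10000 UMIs before the rules were applied, 626 genes were higher and 890 lower.

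All 11 measured nascent and paraxial mesoderm genes were at least 2-fold higher in the HAND1-positive cells than in amnion-like cells (median log2 ratio 2.91). APLNR stood at 104 and 10.7 CPM, LHX1, a LIM homeobox factor of streak and mesoderm, at 246 and 29.4 CPM, and CDH11 at 89.2 and 9.87 CPM. ST8SIA1 (53.6 and 3.58 CPM) and LGR5 (89.2 and 6.20 CPM) had the highest ratios, 3.90 and 3.85. CER1 (429 and 50.0 CPM) and BMP2 (96.0 and 11.4 CPM) were also among the 12 highest. Lateral plate, cardiac and extraembryonic mesoderm genes were split. Of 9 measured other than HAND1, 4 were at least 2-fold higher and 3 lower, with a median log2 ratio of 0.25. The higher genes were GATA6, GATA4, TBX20 and VIM, and the lower were ACTC1 (-3.30), ISL1 (-3.01) and ANXA1 (-2.46).

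Of 12 measured amnion or trophoblast genes other than TFAP2A and GATA3, 11 were at least 2-fold lower (median -2.64), against 6.77% of all genes measured. The LIM factor ISL1 stood at 11.4 CPM in the HAND1-positive cells and 91.6 CPM in the amnion-like cells. GATA2, HEY1, GABRP, TP63, KRT7 and IGFBP3 reached 10 CPM only in the amnion-like cells, so they had to be lower. Since TFAP2A and GATA3 chose the amnion-like cells, the count is a description of that choice. All 4 measured keratins were at least 2-fold lower, with KRT8 at 275 and 1218 CPM. Of 17 epithelial junction genes, 12 were at least 2-fold lower, with the claudin CLDN10 at 109 and 1846 CPM and CDH1 at 95.5 and 315 CPM. Among the lower junction genes, CLDN3, CLDN4, OCLN and CRB3 also reached 10 CPM only in the amnion-like cells. EPAS1, a hypoxia-inducible factor, had the lowest ratio, at 2.19 and 96.1 CPM (log2 ratio -5.45). EMT factors and cadherins had 8 of 14 at least 2-fold higher and 3 lower, and CDH2 was here among the higher ones, at 291 and 94.9 CPM.

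Of 9 measured BMP ligands and extracellular regulators, 2 were at least 2-fold higher and 3 lower in the HAND1-positive than in the amnion-like cells, with a median of 0.04. BMP4 was close in them, at 101 (96.7 to 105) and 98.4 CPM, a log2 ratio of 0.04 (-0.07 to 0.14). BMP2 and BMPER were the 2 higher genes. Of 14 measured BMP response genes, 9 were at least 2-fold lower and none higher (median -1.49), against 6.77% lower of all genes measured. Among these, ID1 stood at 662 and 1956 CPM. SMAD9, GATA2, HEY1 and DLX5, all counted as lower, reached 10 CPM only in the amnion-like cells and so had to be lower. HOXB6, like BMP4, was at a similar level in them, at 8.55 and 9.96 CPM.

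Against all 7980 other kept BMP4 cells, 146 of 9888 genes were at least 2-fold higher, which is 1.48%, and 225 were at least 2-fold lower, which is 2.28%. HAND1 and MESP1, which chose the cells, were among the higher. Among genes of at least 50 CPM other than those of the rules, CDH11 again had the highest log2 ratio, 2.89. It stood at 89.2 CPM in HAND1-positive cells and 12 CPM in the others. LGR5, ST8SIA1, BMPER, ALPK2, ZEB2, NCAM1, SHISA6, APLNR, MESP2, HS3ST3A1 and BMP2 followed, down to 1.88. KIAA0825 (-2.02), CLDN10 (-1.81), DMD (-1.76) and the prostaglandin-degrading enzyme gene HPGD (-1.62) were among the lowest, with CLDN10 at 109 and 383 CPM. Of 5 measured primordial germ cell markers, 4 were at least 2-fold lower, and SOX17 was the exception at 29.7 and 57.6 CPM (log2 ratio -0.96). The other cells share the MESP1-high HAND1-negative and amnion-like cells, so the 3 comparisons overlap in their cells.

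Across cells with MESP1 and at most 1 TFAP2A UMI, levels changed in graded steps with HAND1, also between 2 and 3 UMIs where the rule divides the cells. At 0, 1, 2, 3, 4 and 5 or more HAND1 UMIs (2484, 833, 497, 323, 270 and 828 cells), CDH11 stood at 11.6, 22.3, 36.0, 57.3, 56.0 and 110 CPM. BMPER stood at 38.7, 75.9, 111, 148, 156 and 203 CPM in the same steps. DKK1 ran the other way, at 100, 80.1, 74.2, 61.3, 50.9 and 41.1 CPM. Cells with 1 or 2 HAND1 UMIs thus lay between the cells with none and the HAND1-positive cells for these 3 genes.

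Other genes left their starting level at different points. PDGFRA stood at 40.1, 59.6, 62.8, 77.2, 67.0 and 70.0 CPM, with little change once HAND1 was seen at 3 UMIs. HOXB6 stood at 0.172, 0.244, 0.538, 2.06, 2.43 and 12.6 CPM, so most of its RNA lay in the cells with 5 or more HAND1 UMIs. FGF4 stood at 63.6, 38.0, 33.9, 35.3, 30.4 and 27.1 CPM, with its widest step between 0 and 1 HAND1 UMI. TBXT changed little until the last step, at 281, 291, 275, 251, 276 and 223 CPM. The steps sort cells by 1 sparse count, and median depth ran from 12300 to 14386 UMIs over them.

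**Figure D4:**
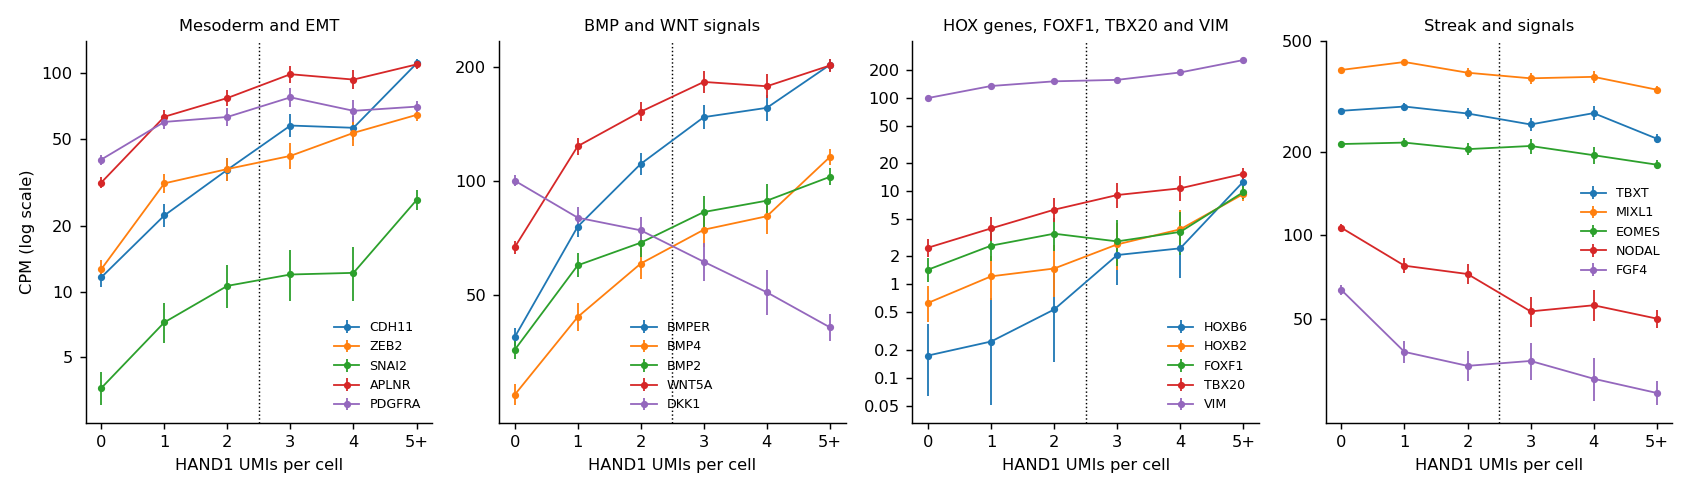
Summed CPM (log scales that differ between panels) of 20 genes against HAND1 UMIs per cell, in BMP4 cells with MESP1 and at most 1 TFAP2A UMI; bars are exact 95% Poisson intervals and the dotted line marks the rule. CDH11 runs from 11.6 CPM at 0 UMIs to 110 CPM at 5 or more, DKK1 from 100 to 41.1 CPM, and HOXB6 reaches 12.6 CPM only in the last step.

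Within the HAND1-positive cells, those richest in HAND1 carried the most RNA of HOXB genes, FOXF1 and TBX20. In cells of 3 to 4, 5 to 8 and 9 or more HAND1 UMIs (593, 535 and 293 cells; median depth 12656, 14009 and 14842 UMIs), HOXB6 stood at 2.23 (1.36 to 3.45), 4.21 (2.96 to 5.80) and 27.2 (22.9 to 32.2) CPM. HOXB2 stood at 3.24, 3.52 and 19.3 CPM, FOXF1 at 3.24, 7.50 and 13.6 CPM and TBX20 at 9.83, 9.89 and 24.7 CPM. VIM, at 170, 216 and 320 CPM, and CDH11, at 56.7, 77.2 and 167 CPM, followed the same order. The nascent mesoderm factor TBX6, at 25.2, 32.1 and 19.9 CPM, and CER1, at 457, 466 and 314 CPM, did not. Cells with 9 or more HAND1 UMIs thus combined the highest levels of HOXB6, CDH11 and VIM with the lowest of CER1 and TBX6.

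MESP1 split the HAND1-positive cells differently. In cells of 1 to 3, 4 to 9 and 10 or more MESP1 UMIs (158, 613 and 650 cells; median depth 11222, 12246 and 15953 UMIs), SOX17, a factor of endoderm and germ cells, stood at 80.1, 26.8 and 22.9 CPM. TFAP2C, a factor of germ cells and amnion, stood at 30.1, 9.48 and 7.76 CPM, and CLDN10 at 298, 117 and 70.1 CPM. CDH11 ran upward, at 41.0, 77.2 and 107 CPM. BMP4 was also lowest in the cells of 1 to 3 MESP1 UMIs, at 76.8, 101 and 105 CPM. NCAM1, at 79.7, 66.7 and 81.3 CPM, showed no order. SOX17, TFAP2C and CLDN10 were thus highest in the cells of 1 to 3 MESP1 UMIs, and of the CLDN10 UMIs 1494 lay in the 46 cells with 10 or more of them per cell. In 1155 thinned cells, HAND1 and MESP1 counts had a Pearson correlation of 0.34 (Spearman 0.35) over cells that share 1 library, and raw HAND1 counts had a correlation of 0.10 with total UMIs over all 1421 cells.

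After thinning, variance over mean was computed for 3737 genes with a mean of at least 0.5 UMIs, and its median was 1.09. CLDN10 was the most uneven gene, at 15, with a median of 0 UMIs and a highest value of 71 UMIs in a cell. FABP5, a fatty acid-binding protein gene (9.31), CER1 (8.27), DMD (7.26) and the neuropeptide gene NTS (6.74) followed. FABP5 and NTS had medians of 34 and 15 UMIs per cell. CLDN10 was seen in 36.0% and DMD in 42.9% of the thinned cells, each with a median of 0 UMIs.

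The cells with 10 or more CLDN10 UMIs, a split made after its values were seen, numbered 46 of 1421, a share of 3.24% (2.38 to 4.29). The same level was reached by 25 of 1033 MESP1-high HAND1-negative cells (2.42%, 1.57 to 3.55) and by 378 of 558 amnion-like cells (67.7%, 63.7 to 71.6). In the 46 cells, DMD stood at 543 CPM, against 109 CPM in the other 1375 HAND1-positive cells, and ISL1 at 41.2 CPM, against 9.57 CPM. CDH11 (14.8 and 93.6 CPM), NCAM1 (6.21 and 79.6 CPM) and BMPER (41.9 and 191 CPM) were lower in the 46 cells. HAND1 stood at 285 and 411 CPM and MESP1 at 290 and 655 CPM.

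The levels of the 46 cells thus lay toward those of the amnion-like cells in each of these genes except HAND1, which stood at 431 CPM in amnion-like cells. Their median depth was 29322.5 UMIs, against 13370 UMIs in the other 1375 cells, and 12 of the 46 were among the 6% of BMP4 cells with the highest doublet scores, as were 136 of all 1421. TFAP2A was at 1 UMI in 31 of the 46 cells (67.4%) and in 121 of the other 1375 (8.80%). Whether these were pairs of cells in 1 droplet was not tested. Without them, 85 genes were at least 2-fold higher and 45 lower than in the MESP1-high HAND1-negative cells.

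**Figure D5:**
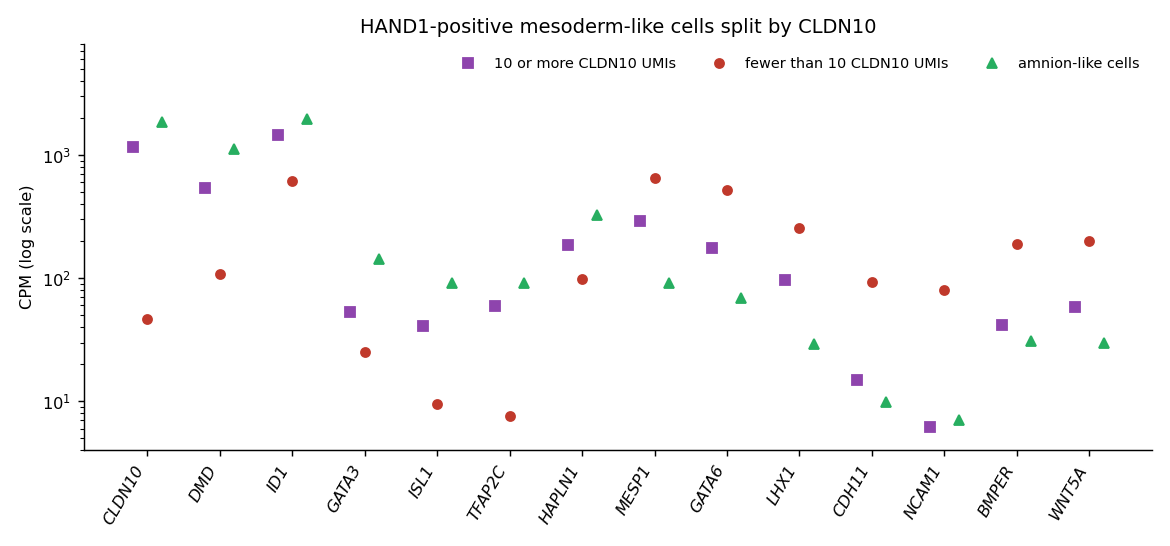
Summed CPM (log scale) of 14 genes in HAND1-positive mesoderm-like cells with 10 or more CLDN10 UMIs (46 cells, squares), in those with fewer (1375 cells, circles) and in amnion-like cells (558 cells, triangles). The squares lie between the circles and the triangles for CLDN10, DMD and BMPER, and NCAM1 in the 46 cells (6.21 CPM) lies as low as in amnion-like cells (6.99 CPM).

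Markers of further cell types were checked in the HAND1-positive cells over whole lists. Of the 16 haemato-endothelial genes, 3 reached 10 CPM. None of them differed 2-fold from MESP1-high HAND1-negative cells, which is near the share over all genes. The defining genes TAL1 (0.175 CPM), CDH5 (0.131 CPM) and PECAM1 (0.131 CPM) were near the level of 3 counts. KDR, a receptor shared by mesoderm and endothelium, stood at 51.1 CPM in the HAND1-positive cells and 53.6 CPM in the MESP1-high HAND1-negative cells. The definitive endoderm list summed to 1620 and 1456 CPM, of which CER1 and GATA6 made 429 and 506 CPM in the HAND1-positive cells. The amnion or trophoblast list summed to 666 CPM in the HAND1-positive cells, 677 CPM in the MESP1-high HAND1-negative cells and 2973 CPM in the amnion-like cells. The part of any of these in the ratios above was not tested.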

How the data were processed

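Single-cell libraries of 3 treatments, 1 each, were analysed. Per the file headers, Cell Ranger 8.0.1 wrote the deposited matrices, whose values are unnormalised UMI counts by gene and barcode. The submitters' processing notes also name Seurat. For build, annotation and strand setting: not given in the sources used here. Genes keep the IDs and symbols of the files.

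The BMP4 matrix held 1935344 barcodes, of which 9440 had at least 3739 UMIs (10% of the value at the 99th percentile among the 10000 largest). Barcodes with under 2000 genes or over 15% mitochondrial UMIs were removed (39), leaving 137174566 UMIs and a median of 12623 per cell. CHIR and CHIR+Activin kept 7084 and 6876 cells. Pairs of libraries shared 8, 12 and 12 barcodes. The automatic threshold of Scrublet (scanpy 1.11.5) marked 0 of 9401 cells and so did not work, and no doublets were removed. An alternative removed the 564 highest scores.

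Raw counts were summed per population and given as CPM with exact Poisson intervals, ratios with exact conditional binomial intervals and shares with Clopper-Pearson intervals (Python 3.11.15, numpy 2.4.6, scipy 1.17.1, pandas 2.3.3), all at 95% and for counting error only. The floor was 3 counts over a population. Genes of at least 10 CPM in either population were compared. The text names, per comparison, the 12 highest and 12 lowest ratios among genes of at least 50 CPM, the 15 most uneven genes and genes of 38 lists (593 genes, all found). Cells thinned to 10000 UMIs gave shares and variation. The steps were tested on simulated data. The members and lists were chosen with earlier results of these data known. Upstream windows came from RefSeq (GRCh38.p14).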

Additional observations from a re-analysis of the deposited data

How the results depend on the processing

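No paired analysis was possible because each treatment was 1 library, and no replicate could be left out. The number of HAND1-positive cells was 1918 with at least 2 HAND1 UMIs, 828 with at least 5, 1263 with at least 4 MESP1 UMIs, 1269 with no TFAP2A UMI and 836 of 7041 after thinning to 10000 UMIs before the rules. Genes at least 2-fold lower than in MESP1-high HAND1-negative cells numbered 40, against 25 with at least 2 HAND1 UMIs, 65 without the 6% highest doublet scores and 66 after thinning. Genes at least 2-fold higher than in amnion-like cells numbered 347, against 626 after thinning. The cause was not tested. A floor of 50 CPM, which tests fewer genes, gave 33 higher and 9 lower genes over MESP1-high HAND1-negative cells, 60 and 51 over all other kept cells and 128 and 266 over amnion-like cells. With no floor, which admits genes of few counts, these were 1155 and 1208, 1321 and 2263, and 2437 and 2256. Of 112 log2 ratios of named genes under 10 alternatives, none of those past 2-fold changed sign. Of the 100 at least 2-fold apart, 92 stayed so in all, and 8 fell below in some. Over MESP1-high HAND1-negative cells these were BMP2 (down to 0.93), TBX3 (0.93), VIM (0.93), WNT5A (0.91), GLIPR1L1 (-0.96), NKAIN2 (-0.998) and RGS7 (-0.99), and over amnion-like cells HOXB2 (-0.69). Leaving out cells with 10 or more CLDN10 UMIs was an alternative chosen after seeing the data. Depth limits genes under 10 CPM.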

Other observations

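In other gene groups, most genes lay within 2-fold between the HAND1-positive and the MESP1-high HAND1-negative cells. The same held over all 9704 genes, with 0.804% at least 2-fold higher and 0.412% lower, so the counts per group are a description. Of 13 measured FGF and ERK feedback genes, PHLDA1 alone was past 2-fold, at 67.2 CPM in the HAND1-positive cells and 27.7 CPM in the MESP1-high HAND1-negative cells. Of 17 matrix genes, the hyaluronan link protein gene HAPLN1 was past 2-fold, at 104 and 45.5 CPM, and it stood higher still in amnion-like cells, at 323 CPM. Of 20 axon guidance genes, the netrin receptor gene UNC5C was past 2-fold, at 50.1 and 24.7 CPM. Of 8 NOTCH genes, HEY2 was past 2-fold, at 19.9 and 8.32 CPM. None of 19 collagens and laminins and none of 14 BMP, NODAL and Activin receptors and SMADs was past 2-fold, with SMAD3 closest, at 55.6 and 28.2 CPM (log2 ratio 0.98).

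The remaining lists held few or no genes past 2-fold in the HAND1-positive over the MESP1-high HAND1-negative cells, beside 0.804% higher and 0.412% lower over all genes. None was past 2-fold among 9 definitive endoderm genes (median log2 ratio -0.20), 5 primordial germ cell genes (-0.40), 2 axial mesoderm genes (-0.46), 4 neural and surface ectoderm genes (-0.23), 9 NODAL pathway genes (-0.07), 8 retinoid genes (-0.16), 3 keratins (-0.05) and 11 muscle and actin genes (0.03). WNT5A was the 1 of 4 WNT ligands past 2-fold, at least 2-fold higher, with a list median of -0.27. WNT feedback genes had 1 of 13 higher and 1 lower (median 0.06), FGF ligands and receptors had FGF4 lower among 9 (median -0.06), and VEGF, PDGF and apelin genes had 1 of 8 higher and KITLG lower (median 0.53).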
